A study of Mus musculus with 3 samples.

Results

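Immediate early genes are transcribed within minutes of a stimulus and need no new protein for it. The 10 genes described here were Fos, Fosb, Fosl2, Jun, Junb, Jund, Egr1, Atf3, Ier2 and Ier3. They were chosen by name as the probe sets whose annotation gives that gene and no other, and each gene had 1 such probe set. They make up 10 of the 21789 probe sets that name 1 gene, and 10 of 19938 genes. The values come from 3 Affymetrix arrays in 1 group. Each array held RNA from sorted glomerular endothelial cells of 1 adult kidney from a mouse carrying Tg(TIE2GFP)287Sato, a transgene that expresses green fluorescent protein from the promoter of Tie2 (Tek), an endothelial receptor gene. The strain was a mixed background, primarily CD-1, and the sex was given as unknown. No drug, diet or disease was applied. The arrays are called replicates 1, 3 and 5, as the labels number them.

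The cells reached the array by a route that can itself act as a stimulus. The cortex was minced and digested with collagenase, glomeruli were caught on sieves, and the glomeruli were digested with trypsin before fluorescence sorting. All 3 arrays went through the same steps, and the group holds no tissue that was lysed without dissociation. A level that the cells had in the kidney and a level acquired during isolation therefore cannot be told apart in these data. Since the sort was on a transgene and each array is a bulk of sorted cells, fewer cells expressing a gene and less of its RNA in each cell cannot be told apart either.

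As background, Fos and Jun proteins are basic leucine zipper (bZIP) factors that pair to form AP-1, which binds the sequence TGACTCA. Jun proteins also pair among themselves, while Fos proteins need a Jun partner. Transcription of Fos and Egr1 is switched on through serum response factor (Srf) and its Ets family cofactors such as Elk1, downstream of MAP kinases. The Jun gene is driven largely through a variant AP-1 site, bound by Jun and Atf2, that responds to Jun kinases (Mapk8 and Mapk9). The transcripts of most of these genes are short-lived, and the products of Dusp1, Zfp36 and Btg2 end the response. In endothelium the same genes respond to shear stress, growth factors and injury, and in many tissues they respond to enzymatic dissociation.

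The upstream promoters of Jun and Fos are shown because the family founders lay on opposite sides of the level tested below. The elements marked next to the start differ in part, and any link between them and the levels was not tested. Both are the 150 bases before the RefSeq transcription start, written 5′ to 3′ on the gene's own strand, from assembly GRCm38.p6. Jun lies at chr4:95052223-95052372 on the minus strand. Its capitals mark a GC box on the reverse strand, a CCAAT box and the variant AP-1 octamer TGACATCA. Fos lies at chr12:85473740-85473889 on the plus strand. Its capitals mark the core TGACG at 2 places, a GC box on the reverse strand and the TATA box TATAAA.
Jun: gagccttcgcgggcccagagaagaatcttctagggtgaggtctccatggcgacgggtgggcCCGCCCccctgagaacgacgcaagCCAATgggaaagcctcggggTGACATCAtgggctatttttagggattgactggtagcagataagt
Fos: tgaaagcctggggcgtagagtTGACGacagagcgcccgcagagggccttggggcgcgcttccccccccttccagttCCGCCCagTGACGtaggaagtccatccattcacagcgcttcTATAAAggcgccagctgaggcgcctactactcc

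RefSeq promoter windows of 300 bases, 250 before and 50 after the start, were at hand for 8 of the 10 genes, with Egr1 and Ier2 not analysed here. The search covered both strands. The variant TGACATCA was found in the Jun window, 45 to 38 bases before the start, and in 3.62% of all 32851 promoter windows. The core TGACG of the cyclic AMP response element was found in 4 of the 8 windows (Fos, Fosb, Junb and Atf3) and in 20.8% of all windows. The GC box GGGCGG was found in 6 of the 8 and in 35.7% of all, and CCAAT in 4 of the 8 and in 37.4% of all. TATAAA was found in 2 of the 8, beginning 33 bases before the start of Fos and at the start itself in Junb, and in 13.6% of all. None of the 8 windows held the full AP-1 site TGACTCA, the full response element TGACGTCA or the CArG box bound by Srf, which were found in 5.2%, 1.79% and 1.63% of all windows. A match is a description of the letters, and no match says only that these letters are not in this window.

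Levels are given as deposited, on a log2 scale. A linear level of 100, or 6.64 on the log2 scale, served as the reference because the study's methods filtered probe sets at that number, there on raw values. With no second group to compare, each mean over the 3 arrays was tested against that level with limma, adjusted over all 21789 probe sets. A call below the level is not a call of absence. As a second reference, the 1035 probe sets of olfactory receptor genes, which endothelium is not known to use, had a median of 3.33 and a 95th percentile of 4.85. Many values repeat between arrays. Of all probe sets, 54.1% held the same value on the 3 arrays and a further 25.7% held only 2 distinct values. The SD of a repeated value is 0, so its standard error (SE) comes from the probe sets with 3 distinct values. Where a gene's own SD is close to 0, as for Jund, the SE comes almost wholly from those probe sets too. The p-values of such genes do not measure the gene's own spread between arrays. No p-value takes in variation other than that between these 3 arrays, whose number limits precision. Levels of different probe sets depend on their probes, so the genes are not ranked by level.

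Jun and Ier3 stood above the level of 100 in the sorted cells, and most of the other immediate early genes stood between the olfactory reference and 100. Of the 10, 7 were called below 100 (Fos, Fosb, Fosl2, Junb, Egr1, Atf3 and Ier2), 2 were called above it (Jun and Ier3), and Jund was called neither. Of all probe sets, 72.5% were called below and 15.8% above, so the shares of 70% and 20% among these genes lay near the background. The median of the 10 means was 5.87 against 5.04 over all probe sets. All 10 means lay over 4.85, and 9 of the 10 were called above it with limma, against 44.4% of all probe sets. The exception was Atf3, at 0.47 above that level with an adjusted p of 0.242.

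**Figure D1:**
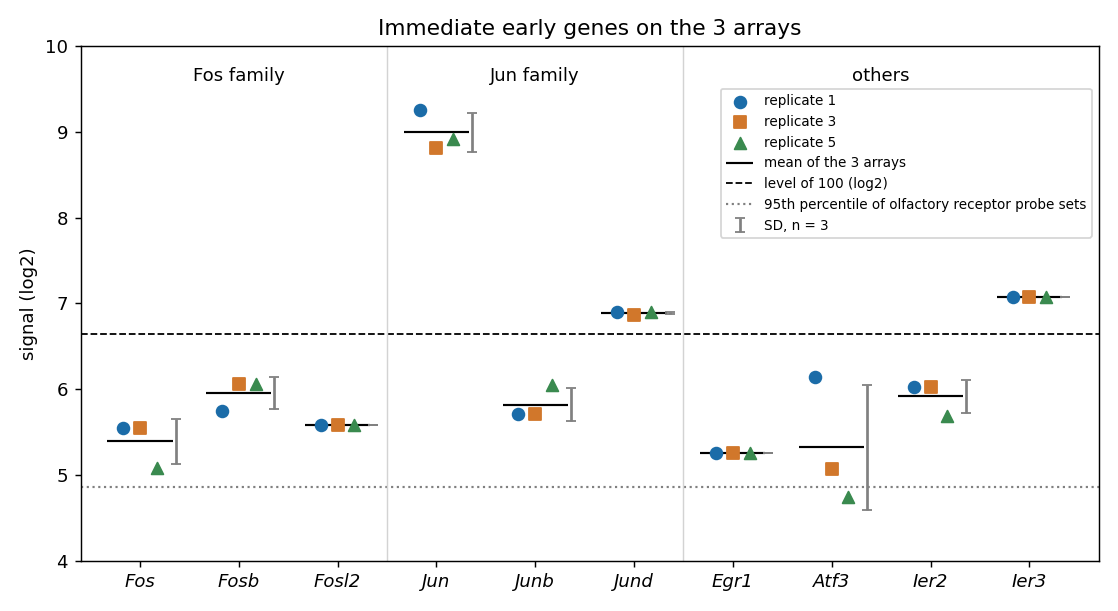
Signal of the 10 immediate early genes on the log2 scale (vertical axis) on each array, grouped by family, with the mean of the 3 arrays (line) and its SD (grey bar, n = 3). The dashed line is the level of 100 and the dotted line the olfactory 95th percentile. Jun stands between 8.81 and 9.25, Ier3 and Jund lie just over the dashed line, and the other 7 lie under it on all 3 arrays.

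Jun, the founding member of the Jun family and the partner that most AP-1 dimers contain, stood well over the level. Its values were 9.25, 8.81 and 8.92 on replicates 1, 3 and 5, or 608.2, 450.1 and 484.4 on the linear scale. All 3 arrays were over 4 times the level, with replicate 1 the highest. The mean of 8.99 ± 0.23 (SD, n = 3) exceeded log2 of 100 by 2.35 (SE 0.15), 5.10-fold on the linear scale, with a limma adjusted p of 0.000195. Of the 1035 olfactory receptor probe sets, 1 lay at or above this mean.

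Jund, the member of the family that is usually expressed steadily and is least dependent on a stimulus, stood at 6.89, 6.87 and 6.89. The 3 arrays were almost level. The mean of 6.89 ± 0.015 (SD, n = 3) was 1.18-fold over 100, and limma called it neither above nor below (adjusted p = 0.12). Its adjusted p ran from 0.00146 to 0.165 over a variance prior from all probe sets, centring of arrays and leaving out each array. The call was above when the variance prior was taken from all probe sets, a prior that variances of 0 shrink. Junb, which often counters Jun in growth control, stood at 5.71, 5.71 and 6.05. Replicate 5 was the highest and the other two arrays shared a value. Its mean of 5.82 ± 0.20 (SD, n = 3) was 1.77-fold under 100 (limma adjusted p = 0.00551). The 3 Jun family genes thus gave 1 call above, 1 below and 1 neither.

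All 3 Fos family genes were called below 100, against 72.5% of all probe sets. Fos, whose product has the strongest activation domains of the family, stood at 5.54, 5.54 and 5.09 on replicates 1, 3 and 5, or 46.7, 46.7 and 33.9 on the linear scale. Replicate 5 was the lowest, and no array reached the level. The mean of 5.39 ± 0.26 (SD, n = 3) was 2.38-fold under 100 (SE 0.16 on the log2 scale, limma adjusted p = 0.00193). Against the olfactory reference Fos was 0.54 higher on the log2 scale (limma adjusted p = 0.0358), and 17 of the 1035 olfactory receptor probe sets lay at or above its mean. The TATA box and the TGACG cores printed above belong to a gene called below 100 and above the olfactory reference. A signal so near that reference cannot be told from cross-hybridisation.

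Fosb, the closest relative of Fos, stood at 5.74, 6.06 and 6.06. Replicate 1 was the lowest, and the other two arrays shared a value. The mean of 5.96 ± 0.19 (SD, n = 3) was 1.61-fold under 100 (limma adjusted p = 0.00972). Fosl2 (Fra-2), a slower member that lacks the strong activation domain of Fos, stood at 5.58 on each of the 3 arrays. It was 2.09-fold under 100 (SE 0.12 on the log2 scale, limma adjusted p = 0.00119), and 8 of the 1035 olfactory receptor probe sets lay at or above it. Fosl1 (Fra-1), the remaining family member, was not among the 10 and stood at 4.73 on each array, under the olfactory 95th percentile.

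Egr1, a zinc finger factor that Srf and Elk1 induce alongside Fos, stood at 5.26 on each of the 3 arrays, or 38.2 on the linear scale. It was 2.62-fold under 100 (SE 0.12 on the log2 scale, limma adjusted p = 0.000479). Against the olfactory reference it was 0.40 higher (limma adjusted p = 0.0342), with 25 of the 1035 olfactory receptor probe sets at or above it. Egr1 was thus called below the level and above the olfactory reference, as were Fos, Fosb, Fosl2, Junb and Ier2.

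Ier2, a short nuclear protein induced by serum and growth factors, stood at 6.03, 6.03 and 5.69. Replicate 5 was the lowest. The mean of 5.91 ± 0.20 (SD, n = 3) was 1.66-fold under 100 (limma adjusted p = 0.00831). Ier3 (IEX-1), a target of NF-kappaB that modulates apoptosis and ERK signalling, stood at 7.08 on each array, or 134.9 on the linear scale. It was 1.35-fold over 100 (SE 0.12 on the log2 scale, limma adjusted p = 0.0249), and its adjusted p was 0.0449 without replicate 1. NF-kappaB's own inhibitor and target Nfkbia stood at 8.09 on each array and was also called above (limma adjusted p = 0.000417). Other NF-kappaB targets went the other way. Tnfaip3 stood at 4.75 and Nfkbiz at 5.19 on each array, and both were called below.

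Atf3, a stress-induced bZIP factor that represses many early genes as a homodimer, was the one gene of the 10 whose signal differed by over 2-fold between arrays. Its values were 6.14, 5.07 and 4.75 on replicates 1, 3 and 5, or 70.7, 33.6 and 26.9 on the linear scale. Replicate 1 stood apart on the high side, and replicate 5 was the only value among the 10 genes that fell under the olfactory 95th percentile. The mean of 5.32 ± 0.73 (SD, n = 3) was 2.50-fold under 100 (SE 0.32 on the log2 scale, limma adjusted p = 0.0169). The call below 100 is not firm. It was lost without replicate 5, at a difference of -1.04 on the log2 scale (limma adjusted p = 0.0552), and with the variance prior from all probe sets (limma adjusted p = 0.0909). Over that prior, centring of arrays and leaving out each array, the limma adjusted p against 100 ran from 0.00207 to 0.0909.

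The spread between the 3 kidneys could be read for few of the genes, since 8 of the 10 held repeated values. The gap between the highest and lowest array passed 2-fold for 1 of the 10 genes, Atf3 at 2.63-fold, and for 5.73% of all probe sets. As the lowest array of Atf3 lay under the olfactory reference, this fold compares signals partly at background, and replicate 1 was 2.44-fold over that reference. Among the other 9, the widest gap was that of Fos, at 1.37-fold. Fosl2, Egr1 and Ier3 held the same value on every array, 5 genes held 2 distinct values, and Jun and Atf3 held 3. The genes did not share a high array: Jun and Atf3 were highest on replicate 1, Junb on replicate 5 and none on replicate 3. The lowest array was replicate 5 for Fos, Ier2 and Atf3, replicate 3 for Jun and Jund, and replicate 1 for Fosb. The spread between replicates was described and not tested.

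**Figure D2:**
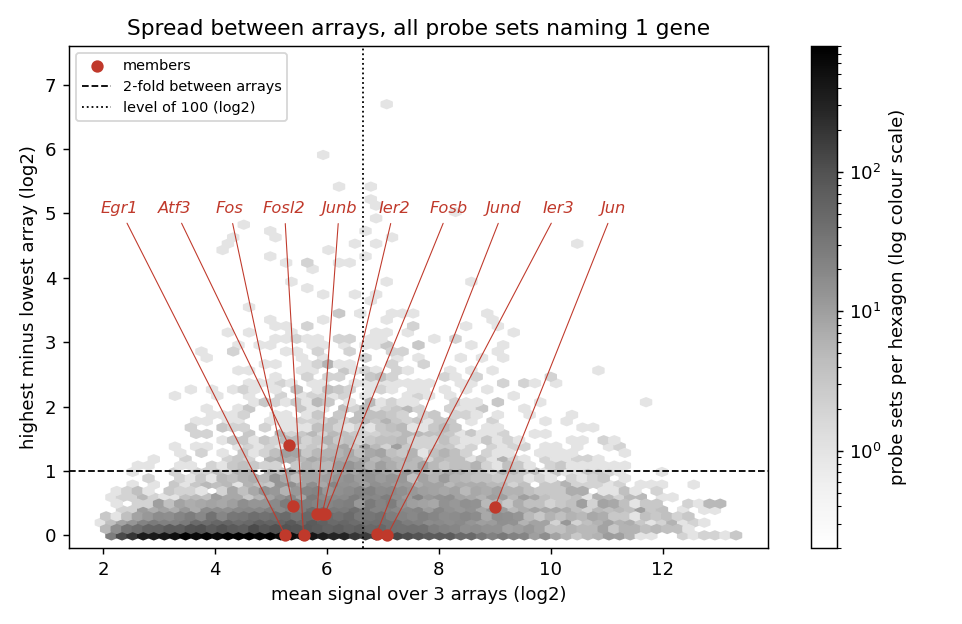
Gap between the highest and lowest array (vertical axis, log2) against the mean signal over the 3 arrays (horizontal axis, log2) for all 21789 probe sets that name 1 gene, in grey hexagons, with the 10 immediate early genes as red points. The dashed line is a gap of 2-fold and the dotted line the level of 100. Atf3 alone of the 10 lies over the dashed line, and Egr1, Fosl2 and Ier3 lie at a gap of 0.

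The probe sets whose pattern lay nearest to that of Atf3 were sought among the 1247 of other genes with a gap over 2-fold, by the distance between deviations from the gene's own mean over the 3 arrays. Of these, 107 (8.58%) had the same order, with replicate 1 highest and replicate 5 lowest. The 5 nearest were Uchl1, a ubiquitin hydrolase, Ssh2, a cofilin phosphatase, 1700064E03Rik, Itga8, the integrin chain of mesangial cells, and Psmb8, a subunit of the immunoproteasome. Itga8 stood at 6.08, 4.94 and 4.75. Psmb8 stood at 9.05, 7.82 and 7.55, and Uchl1 at 5.71, 4.52 and 4.28. With 3 arrays, and with Atf3 near background on replicates 3 and 5, nearness is a description only.

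Heat shock genes, which are also induced when tissue is dissociated warm, differed between the kidneys too. Of 9 measured, 4 (44.4%) had a gap over 2-fold, against 5.73% of all probe sets and 3 of the 10 endothelial markers. The median level of the 9 was 9.79 on replicate 1, 9.58 on replicate 3 and 9.24 on replicate 5. Hsp90aa1, an abundant cytosolic chaperone, stood at 11.46, 10.51 and 9.98, and its other 2 probe sets had the same order of arrays. Hspa8, the constitutive Hsp70, stood at 12.54, 11.67 and 11.53, highest on replicate 1 as Atf3 was. Its gap was only just over the threshold, at 2.01-fold. The other Hspa8 probe sets had the same order of arrays, with gaps of 2.16-fold and 1.85-fold. Hspa1a, the strongly inducible Hsp70, stood at 9.22, 9.40 and 6.38, with replicate 5 far under the other two. Hsph1, a nucleotide exchange factor for Hsp70, stood at 8.56, 6.34 and 7.55 and had its lowest array elsewhere.

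The mesangial and smooth muscle markers were all called below 100 (8 of 8), against 72.5% of all probe sets. Their summed log2 level was 40.1, 38.8 and 38.3 on replicates 1, 3 and 5. Their median level was 4.83, 4.88 and 4.79, so the median did not follow the order of Atf3 as the sum did. Within the list, Itga8 alone had a gap over 2-fold. Since Itga8 was already found by the search for patterns near Atf3, the order of the sum partly repeats that search. Pdgfrb, the platelet-derived growth factor receptor of mesangial cells, stood at 4.51, 4.13 and 4.03. Acta2, the smooth muscle actin, stood at 5.21 on each array. The part of other cells or of the heat shock genes in the spread of Atf3 was not tested.

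**Figure D3:**
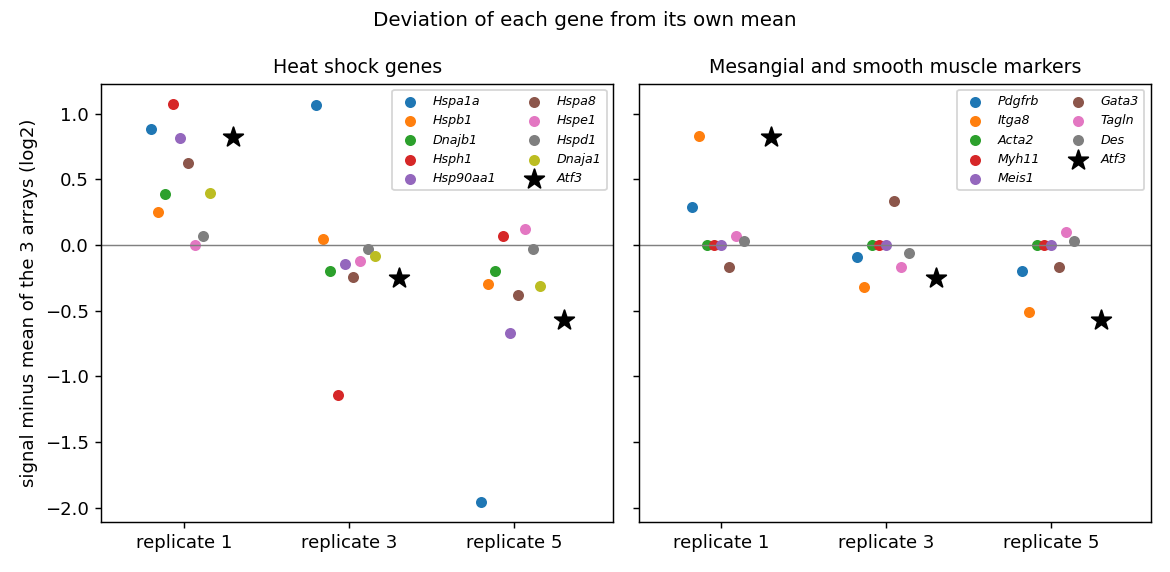
Deviation of each gene from its own mean over the 3 arrays (vertical axis, log2) on replicates 1, 3 and 5 for heat shock genes (left) and for mesangial and smooth muscle markers (right), with Atf3 as a black star in both. Hsp90aa1 and Hspa8 lie above 0 on replicate 1 as Atf3 does, and Hspa1a lies lowest on replicate 5. Among the mesangial markers Itga8, found by the search for patterns near Atf3, lies close to Atf3 on each array.

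Other immediate early transcription factors were also mostly called below 100. Of 20 measured, 14 (70%) were below, 3 (15%) above and 3 neither, near the 72.5% below and 15.8% above of all probe sets. Their median level was 5.31. The 3 above were Klf2, Klf4 and Klf6, Krüppel-like factors, of which the first 2 are induced in endothelium by laminar flow. Klf2 stood at 7.78 on each array, 2.20-fold over 100 (limma adjusted p = 0.000939). Klf4 stood at 7.41 on each array, and Klf6 averaged 7.24 ± 0.16 (SD, n = 3). The Egr relatives of Egr1 were called below, with Egr2 at 4.60 and Egr3 at 5.77 on each array. Nr4a1 (Nur77), an orphan nuclear receptor, stood at 5.45, 5.13 and 5.23 and was 2.59-fold under 100 (limma adjusted p = 0.000803). No gene of this list had a gap over 2-fold between the arrays.

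Feedback regulators and other early response genes were divided. Of 33 measured, 11 (33.3%) were called above 100, 15 (45.5%) below and 7 neither, with a median of 6.42, beside 15.8% above and 72.5% below over all probe sets. Dusp1, the phosphatase that inactivates Jun kinases, p38 and ERK, stood at 9.98, 9.33 and 9.61. Replicate 1 was the highest and replicate 3 the lowest, the same arrays as for Jun. Its mean of 9.64 ± 0.33 (SD, n = 3) was 7.99-fold over 100 (limma adjusted p = 0.000159). Btg2, an antiproliferative recruiter of the deadenylase, stood at 8.03, 7.46 and 7.88 and was 2.21-fold over (limma adjusted p = 0.00316). Zfp36 (tristetraprolin), which sends Fos and cytokine transcripts to decay, stood at 7.17, 6.73 and 7.05 and was called neither (limma adjusted p = 0.0954). Of the phosphatases related to Dusp1, Dusp2 stood at 4.66, Dusp5 at 5.97 and Dusp6 at 5.87 on each array, and all 3 were called below. Ier5, a relative of Ier2, stood at 6.16 on each array and was called below.

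In that list 3 genes had a gap over 2-fold. Plk2, a polo-like kinase induced by serum and stress, stood at 9.60, 8.19 and 7.71, with replicate 1 highest and replicate 5 lowest as for Atf3. It was called above 100 (limma adjusted p = 0.0134). Gadd45g, a stress sensor that activates Jun kinase and p38 signalling, stood at 5.72, 6.98 and 5.24, highest on replicate 3 and lowest on replicate 5. Btg1, a relative of Btg2, stood at 6.32, 7.72 and 7.63, highest on replicate 3 and lowest on replicate 1. Both were called neither.

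Among secreted products of the early response, 8 of 10 measured genes (80%) were called below 100, 1 above and 1 neither. Over all probe sets 72.5% were below and 15.8% above, so these counts lay near the background. Ccn1 (Cyr61) stood at 5.62 and Ccn2 (Ctgf) at 6.06 on each array, and Cxcl1, a neutrophil chemokine, at 5.72. Hbegf, a membrane-anchored ligand of the EGF receptor, was the gene called above. It stood at 7.64, 7.36 and 8.16, and its mean of 7.72 ± 0.41 (SD, n = 3) was 2.11-fold over 100 (limma adjusted p = 0.00752). Edn1 (endothelin 1) stood at 6.87, 8.45 and 7.08, a gap of 2.99-fold with replicate 3 the highest, and was called neither (limma adjusted p = 0.0988). Ptgs2 (cyclooxygenase 2) stood at 3.99, 5.17 and 4.32, also highest on replicate 3, and was called below.

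Other bZIP factors that can pair with AP-1 or share its sites gave 9 calls above 100, 9 below and 4 neither of 22 measured. That is 40.9% each way, against 15.8% above and 72.5% below over all probe sets, with a median of 6.53. Atf2, the usual partner of Jun on the variant site printed above, stood at 7.42 on each array and was called above (limma adjusted p = 0.00355). Creb1, which binds the TGACG core, stood at 8.41 on each array and was also called above. Jdp2, a Jun repressor, stood at 6.31 and was called neither (limma adjusted p = 0.0546). Batf, an AP-1 factor of lymphocytes, averaged 5.96 ± 0.12 (SD, n = 3) and was called below. Atf7, a relative of Atf2, stood at 8.47, 7.83 and 9.32, while its other probe set stood at 8.11, 7.84 and 8.11, so the gap over 2-fold was seen in 1 of its 2 probe sets.

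Signalling genes upstream gave 10 calls above 100, 10 below and 4 neither of 24 measured. That is 41.7% each way, against 15.8% above and 72.5% below over all probe sets, with a median of 6.92. Srf itself stood at 5.35 on each array, 2.46-fold under 100 (limma adjusted p = 0.000604). Of its Ets cofactors, Elk1 stood at 7.08, 6.27 and 6.48 and was called neither (limma adjusted p = 0.875). Elk3, the endothelial cofactor Net, averaged 9.20 ± 0.10 (SD, n = 3) and was called above at 5.88-fold. Elk4 stood at 7.74, 6.85 and 7.26 and was also called above (limma adjusted p = 0.0457). The Jun kinase Mapk8 stood at 7.32, 6.83 and 6.75 and was called neither (limma adjusted p = 0.144). The Jun kinase Mapk9 stood at 7.22 on each array and was called above (limma adjusted p = 0.00972). Mrtfb, an actin-regulated Srf cofactor, stood at 6.12, 8.73 and 8.28 and was called neither. Its other 2 probe sets stood at 7.04, 6.79 and 8.13 and at 7.67, 7.65 and 7.68, so the 3 probe sets disagreed on the arrays. The last of these was called above 100 at 2.03-fold (limma adjusted p = 0.00138), so the call of Mrtfb depends on the probe set.

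Heat shock genes gave 6 calls above 100 (66.7%, against 15.8% of all probe sets) and 3 neither of 9 measured, with a median of 9.54. None was called below with limma, and 1 was below at an unadjusted p under 0.05. Hspb1, a small heat shock protein abundant in endothelium, stood at 9.79, 9.58 and 9.24, 7.42-fold over 100 (limma adjusted p = 0.000139). Dnajb1, the inducible partner of Hsp70, stood at 6.53, 5.94 and 5.94 and was called neither (limma adjusted p = 0.054). Hspa1a and Hsph1 were the other two called neither, with gaps of 8.12-fold and 4.65-fold between arrays. Creb1, Fosl1, Maff and Srf were counted in 2 of these lists each.

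**Figure D4:**
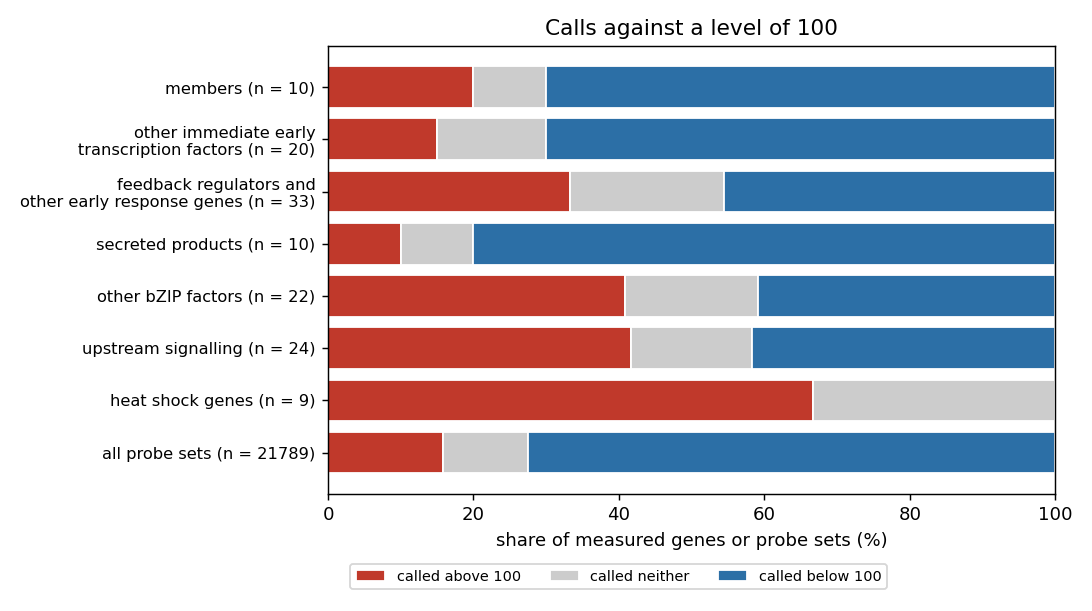
Share of measured genes called above 100 (red), neither (grey) and below 100 (blue) in the 10 immediate early genes, 6 lists of related genes and all 21789 probe sets (horizontal axis, percent). The immediate early genes (20% above, 70% below) and the other immediate early transcription factors (15% above, 70% below) lie near the bar of all probe sets, and the heat shock genes are 66.7% above.

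The endothelial markers matched the labelled cell type. All 10 were called above 100, against 15.8% of all probe sets, with a median of 10.44. Tek averaged 10.65 ± 0.43, Pecam1 averaged 10.26 ± 0.21 and Cdh5 averaged 10.75 ± 0.32 (SD, n = 3). The endothelial list was lowest on replicate 3, with medians of 10.64, 9.77 and 10.75 on replicates 1, 3 and 5, and 3 of its genes had a gap over 2-fold. Jun and Dusp1 were also lowest on replicate 3, and the part of endothelial RNA content in that was not tested.

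Of the 5 podocyte markers measured, 4 were called below 100, with Nphs1 at 5.47, Synpo at 5.07 and Wt1 at 5.24. The exception was Podxl at 9.86 ± 0.08 (SD, n = 3), a sialomucin that endothelial cells also carry. All 7 proximal tubule, 5 distal nephron and 8 leukocyte markers measured were called below 100. That call was shared by 72.5% of all probe sets, so for any single marker it says little. The tubule markers Slc34a1, Lrp2 and Kap stood at 5.37, 4.33 and 4.56, the distal markers Umod, Slc12a1 and Slc12a3 at 5.15, 3.56 and 4.75, and the leukocyte markers Ptprc, Cd68 and Csf1r at 4.77, 5.29 and 4.24. With all of them called below, no marker of these 3 lists could be above 100 with limma at an unadjusted p under 0.05.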

How the data were processed

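The deposited values are log2 signals per probe set, measured on whole-transcript Affymetrix mouse arrays after 1 round of amplification. The scale was read from the values, which ran from 1.39 to 14.40 with array medians of 4.79 to 4.85. Affymetrix Expression Console is the tool listed in the submitters' processing notes. The arrays that the authors normalized together and the origin of the repeated values are not given in the sources used here, nor is it given whether a raw value of 100 in the methods equals 100 on this scale. Of 35557 probe sets, 21789 named 1 gene by the platform annotation, 1621 named several and 12147 none; the last 2 kinds were left out. Each mean of the 3 arrays was tested, two-sided, against log2 of 100 with limma 3.58.1 in R 4.3.3 and Benjamini-Hochberg adjustment at 0.05. The variance prior (SD 0.288, 2.03 degrees of freedom) came from the 4406 probe sets with 3 distinct values (tolerance 1e-09), since variances of 0 would shrink it. The test was checked on simulated data. A listed gene with several probe sets was counted by the one with the highest mean. The first 4 measured genes of each related list and up to 3 with the widest gaps over 2-fold were named, and the first 3 of each marker list. Klf2, Klf4, Klf6, Nfkbia, Nfkbiz, Tnfaip3, Dusp2, Dusp5, Dusp6, Elk4, Mapk9 and the genes of the closing section were named after their values were seen. The variant AP-1 octamer, the TGACG core, the GC box and the CCAAT box were added to the motifs then too. The genes, lists and tests were chosen with earlier results of these data known. All 10 genes matched RefSeq by Entrez ID. Some listed genes were not analysed here. Alternatives were other variance priors, other levels, centring of arrays, low-level filters, means over probe sets and leaving out each array.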

Additional observations from a re-analysis of the deposited data

How the results depend on the processing

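The level chosen sets the count of calls. At a level of 200, 1 of the 10 immediate early genes was called above and 9 below, against 8.35% and 84.3% of all probe sets. At a level of 50, 3 were called above and 1 below, against 28.6% and 55.0% of all probe sets. At the olfactory 95th percentile, 9 were called above and 0 below, against 44.4% and 36.2% of all probe sets. As all 10 means lay over that percentile, none could be called below it, at an unadjusted p under 0.05 either (limma). The count of genes with a gap over 2-fold ran from 0 to 1 when 1 array was left out, and it was 0 without replicate 1, where the gap of Atf3 is under 2-fold. Heat shock genes called below ran from 0 to 1 in the same way, with the 1 without replicate 1. With the variance prior from all probe sets, Jund was called above (adjusted p = 0.00146) and Atf3 was called neither (adjusted p = 0.0909). Variances of 0 shrink that prior. It gave the genes equal on all arrays limma adjusted p of 5.17e-33 (Egr1), 6.82e-33 (Fosl2) and 5.9e-33 (Ier3), which 3 arrays cannot bear out. Without replicate 5, Atf3 was called neither at -1.04 (adjusted p = 0.0552). The other 8 genes kept their calls under that prior, under centring and without each array. The prior and the centring leave the mean over the 3 arrays unchanged, so no difference could change sign there. None of the 10 differences from 100 changed sign when 1 array was left out. For Egr1, Fosl2 and Ier3, equal on all arrays, that outcome was fixed in advance. Against the olfactory reference, the 7 genes below 100 had positive differences, 0.40 (Egr1) to 1.10 (Fosb). No paired analysis was possible because all arrays form 1 group. With 3 arrays and many repeated values, a difference between kidneys cannot be tested for a single gene, and a signal near the olfactory reference cannot be told from cross-hybridisation.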

Other observations

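Genes that AP-1 and Egr1 are known to switch on later were called below 100 at about the share of all probe sets. The list was written after the data were seen and is given as a description. Of 15 measured, 10 (66.7%) were called below 100, 2 (13.3%) above and 3 neither, beside 72.5% and 15.8% of all probe sets, with a median of 4.90 against 5.04 over all probe sets. Ccnd1 (cyclin D1), the cell cycle target of AP-1, stood at 8.70 on each array and was called above, 4.15-fold over 100 (limma adjusted p = 0.000147). Pdgfb, an endothelial growth factor and Egr1 target that recruits mesangial cells, stood at 6.86, 7.21 and 7.55 and was called above (limma adjusted p = 0.0428). Without replicate 5, or with the variance prior from all probe sets, 1 gene of the list was called above.

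Among the matrix and clotting targets, F3 (tissue factor), an Egr1 target in activated endothelium, stood at 3.63, 3.75 and 3.75, and Timp1, an inhibitor of matrix proteases, stood at 3.94 on each array. Both were under the olfactory 95th percentile of 4.85 on all 3 arrays. The Egr corepressors Nab1 and Nab2, which Egr factors induce and which then silence them, averaged 6.80 ± 0.09 and 6.56 ± 0.16 (SD, n = 3) and were called neither. Plaur, the urokinase receptor, stood at 7.23, 5.98 and 7.74, a gap of 3.38-fold with replicate 3 the lowest, and was called neither (limma adjusted p = 0.441).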
